A study of Mus musculus with 27 samples.

Results

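The 10 genes H19, Igf2, Igf2r, Dlk1, Meg3, Peg3, Peg10, Mest, Grb10, and Plagl1 are imprinted genes that act on growth. They were taken by gene name from a table of 54532 genes, and all 10 were found and followed in 27 RNA-seq libraries of mouse embryonic fibroblasts (MEFs) during reprogramming to induced neurons (iNs). The cells were WT, Per1-/-, or Per2-/- (from the lines B6.129-Per1tm1Drw/J and B6.129-Per2tm1Drw/J), with 3 replicates per genotype on days 0, 2, and 4. All libraries, including those of day 0, came from cultures given lentiviruses for the reprogramming factors before day 0. Doxycycline, which turns these factors on, and serum-free N3 medium were given from day 0 onward, so that the effects of time, the factors, and the change of medium cannot be told apart. The MEFs of several embryos were pooled in a culture dish, after the head and the heart had been removed, and MEF cultures can contain macrophages and other cells beside fibroblasts.

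An imprinted gene is transcribed mainly from the copy inherited from one parent, because DNA methylation laid down in the egg or the sperm marks a control region of its cluster. Many imprinted genes are high in the embryo and placenta, set body size, and are shut down after birth. Paternally expressed genes such as Igf2, Dlk1, Mest, Peg3, and Peg10 mostly favor growth, whereas maternally expressed genes such as H19, Igf2r, Meg3, and Grb10 mostly restrain it or accompany a growth gene. The libraries carry no information about the parental copies, so every value below is the sum over both copies.

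The members lie in 8 regions of the genome (GRCm38 coordinates of the whole genes). H19 (chr7:142575529-142578143), a long noncoding RNA, and Igf2 (chr7:142650766-142666816), a secreted growth factor, are 72.6 kb apart and share enhancers. Dlk1 (chr12:109452823-109463336), a membrane protein with EGF-like repeats, and Meg3 (chr12:109541001-109571726), a long noncoding RNA, are 77.7 kb apart. Igf2r (chr17:12682406-12769664) encodes the receptor that clears IGF2 and carries lysosomal enzymes, and Grb10 (chr11:11930508-12038683) encodes an adaptor that dampens signalling of the insulin and IGF1 receptors. The other members are Peg10 (chr6:4747306-4760517), derived from a retrotransposon and needed in the placenta, Mest (chr6:30723547-30748465), an enzyme of the alpha/beta hydrolase fold, and the zinc finger proteins Peg3 (chr7:6703892-6730431) and Plagl1 (chr10:13060504-13131694).

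The sequences just upstream of the starts of Mest, Dlk1, Meg3, and Plagl1 are printed because these members had called changes over days and come from 3 different regions. They are the 250 bases before a transcript start in RefSeq, build GRCm38.p6, plus strand, 5′ to 3′, and CG, the dinucleotide on which imprint methylation is placed, is in capitals. The windows are chr6:30733256-30733505 and chr6:30737800-30738049 for an upstream and a downstream start of Mest, chr12:109452573-109452822 for Dlk1, chr12:109540746-109540995 for Meg3, and chr10:13090582-13090831 for Plagl1.
Mest, upstream start: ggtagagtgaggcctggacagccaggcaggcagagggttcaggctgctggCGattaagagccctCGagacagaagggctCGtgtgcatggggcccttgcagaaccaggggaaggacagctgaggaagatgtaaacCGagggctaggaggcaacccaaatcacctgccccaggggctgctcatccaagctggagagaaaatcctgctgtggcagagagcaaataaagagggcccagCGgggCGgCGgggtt
Mest, downstream start: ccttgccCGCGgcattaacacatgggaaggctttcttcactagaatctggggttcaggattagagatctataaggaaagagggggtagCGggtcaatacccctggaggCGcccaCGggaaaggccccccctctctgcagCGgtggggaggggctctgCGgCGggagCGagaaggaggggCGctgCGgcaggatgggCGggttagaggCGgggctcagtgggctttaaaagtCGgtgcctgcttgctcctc
Dlk1: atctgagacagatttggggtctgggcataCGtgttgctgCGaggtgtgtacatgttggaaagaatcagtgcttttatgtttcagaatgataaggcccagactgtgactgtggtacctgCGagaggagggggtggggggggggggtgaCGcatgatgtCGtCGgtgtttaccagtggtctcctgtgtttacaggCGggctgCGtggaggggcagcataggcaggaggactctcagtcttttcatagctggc
Meg3: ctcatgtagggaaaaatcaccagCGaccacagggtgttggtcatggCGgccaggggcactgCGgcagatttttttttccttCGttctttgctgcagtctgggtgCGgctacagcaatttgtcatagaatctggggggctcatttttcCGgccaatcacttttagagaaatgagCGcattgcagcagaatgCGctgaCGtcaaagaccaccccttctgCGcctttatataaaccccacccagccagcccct
Plagl1: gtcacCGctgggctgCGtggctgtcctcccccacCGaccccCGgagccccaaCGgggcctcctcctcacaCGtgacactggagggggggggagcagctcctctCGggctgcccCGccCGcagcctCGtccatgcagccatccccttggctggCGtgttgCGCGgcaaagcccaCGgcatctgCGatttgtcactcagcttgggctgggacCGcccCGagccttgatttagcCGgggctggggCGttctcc
They hold 7, 14, 8, 10, and 19 CG dinucleotides in this order, and the median over 32851 windows of the same length was 6. RefSeq windows were matched by symbol for 8 of 10 members (15 windows). Of 7 motifs searched on both strands, CAGCTG, a form of the E-box, was found in 1 of the 15 windows (the upstream start of Mest) and in 13.001% of all windows, and CAGGTG was found in 2 (Igf2r and the upstream start of Mest) and in 17.2%. The looser form CANNTG, which includes both, was found in 8 of 15 and in 66.2%. GGGGCC was also found in 8 of 15 (windows of Grb10, Igf2, Mest, Peg3, and Plagl1) and in 22.0%. The 15 windows are not independent, since some members have several. For Mest, chr6:30737800-30738049 and chr6:30737803-30738052 overlap almost fully. TATAAA was found for Meg3 and in 12.4% of all windows, TGACGTCA for Meg3 and Peg3 and in 1.55%, and the NRF1 motif for no member and in 0.782%.

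The libraries held 15815013 to 24264097 fragments on genes, and the lowest value of any member rested on 225 fragments (Mest). Levels are given as FPKM, fragments per kilobase of gene length and per unit of library size after scaling of the libraries, so that they can be compared between genes. The RNA of the targeted genes did not follow the labels cleanly. By western blotting, the study reported that PER1 protein was lost in Per1-/- MEFs and PER2 protein in Per2-/- MEFs. The mean FPKM of Per1 on days 0, 2, and 4 was 4.11, 4.21, and 4.45 in Per1-/- cells and 5.78, 4.80, and 5.16 in WT cells. For Per2 it was 1.93, 2.83, and 2.83 in the libraries labelled Per2-/-, above 0.894, 1.57, and 1.73 in WT cells, so these libraries are named by their label, as Per2-labelled libraries. By limma, Per2 was called higher there on days 0 and 2 (log2 fold changes of 1.03 and 0.82), and Per1 was not called between Per1-/- and WT cells on any day. The summed FPKM of 10 fibroblast markers was 2266 or more in every library. None of the defining fibroblast or macrophage markers was at 0 in all libraries of a group. Although the labels call the samples induced neurons, the summed FPKM of 12 neuronal markers was 27.3 to 49.6 on day 0 and 110.2 to 205 on day 4.

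All 10 members were expressed in MEFs before reprogramming. H19 was the most abundant, with a mean of 982 FPKM over the 27 libraries, which ranked it 17 among the 14932 genes tested, those whose mean reached 0.5 FPKM. Igf2, its neighbor, had the lowest mean of the members with 15.1 FPKM. Grb10 and Igf2r had 111 and 104 FPKM and had the narrowest ranges, the highest library being 1.90 and 2.02 times the lowest. Mest (3.86 to 208 FPKM) and Dlk1 (8.45 to 385 FPKM) spanned the widest ranges, 53.8 and 45.6 times. The 9 groups of genotype and day, ordered by the mean of a member, overlapped with the next group in the order in most cases. The libraries of neighbors were apart at 1 of 8 steps for H19, Igf2, Igf2r, Meg3, Peg3, Peg10, and Mest, and at none for Dlk1, Grb10, and Plagl1.

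**Figure D1:**
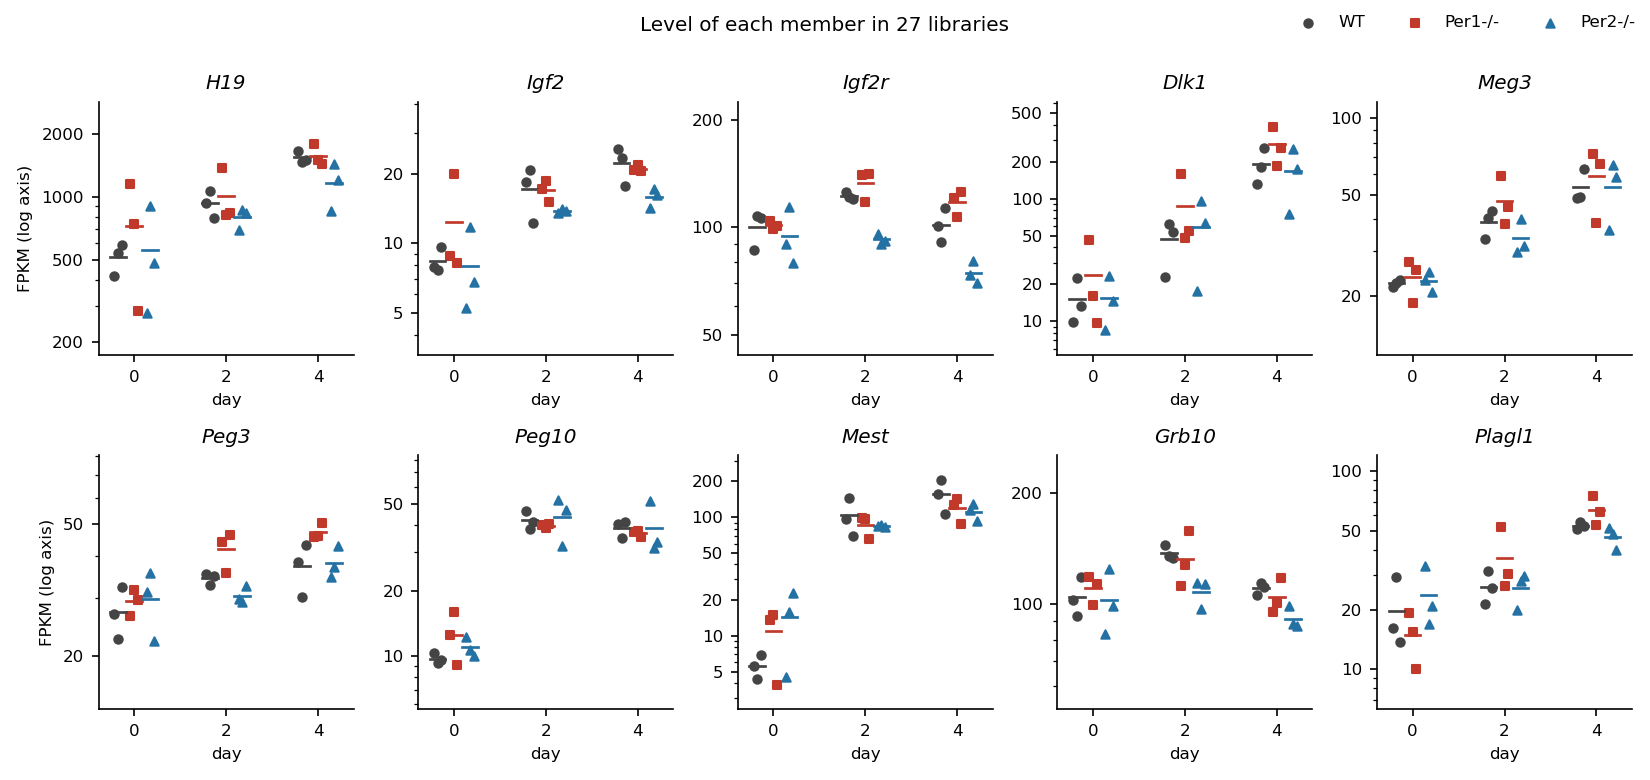
FPKM of each of the 10 members (log axis) against the day of reprogramming, with a point for each of the 27 libraries and a bar for the mean of the 3 libraries of a genotype. Mest, Dlk1, Peg10, Meg3, and Plagl1 were higher in every library of day 4 than in every library of day 0, whereas Igf2r and Grb10 stayed within 70.0 to 158 FPKM.

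The comparison of days asked how the MEF transcriptome moved once the reprogramming factors were on. Growth-promoting Mest, Dlk1, Peg10, and Igf2 rose, and so did Plagl1 and the noncoding RNAs H19 and Meg3. These 7 members were called higher on day 4 than on day 0 in all 3 genotypes by limma (adjusted p up to 0.05, with a log2 fold change of 0.58 or more either way), and Peg3 was called as the 8th in Per1-/- cells. No member was called lower. Of all 14932 tested genes, 22.9%, 22.6%, and 21.6% were called higher in WT cells, Per1-/- cells, and the Per2-labelled libraries, and 20.9%, 20.4%, and 18.8% lower. The median log2 fold change of the members was 1.45, 1.31, and 1.12, beside -0.020, -0.00088, and 0.0045 over all tested genes. Rescaling to a common sum per library (TPM) shifted these medians of all genes to 0.38, 0.26, and 0.25 and the share of higher genes among all called from 52.2%, 52.6%, and 53.5% to 78.5%, 72.0%, and 71.7%.

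Much of the rise came early. Between days 0 and 2, 5 members were called higher in WT cells (Igf2, Dlk1, Meg3, Peg10, and Mest), 5 in Per1-/- cells (Dlk1, Meg3, Peg10, Mest, and Plagl1), and 4 in the Per2-labelled libraries (Igf2, Dlk1, Peg10, and Mest). None was called lower. Over all tested genes 20.8%, 20.8%, and 18.7% were called higher and 19.7%, 18.8%, and 16.8% lower. Between days 2 and 4 the only member called was Plagl1 in WT cells, and 0 were called in Per1-/- cells or in the Per2-labelled libraries. At an unadjusted p of at most 0.05 by limma, 4, 3, and 5 members passed in WT cells, Per1-/- cells, and the Per2-labelled libraries. So did 2977, 2983, and 3380 of all 14932 tested genes. In that interval 1.62%, 1.38%, and 2.32% of all genes were called higher and 1.59%, 1.06%, and 1.74% lower. On the TPM scale the share of higher genes among all called went from 51.3%, 52.5%, and 52.7% to 81.8%, 81.9%, and 78.6% for days 0 and 2, and from 50.5%, 56.6%, and 57.1% to 38.7%, 24.2%, and 37.7% for days 2 and 4. By voom, 1, 0, and 0 members were called in that interval too.

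**Figure D2:**
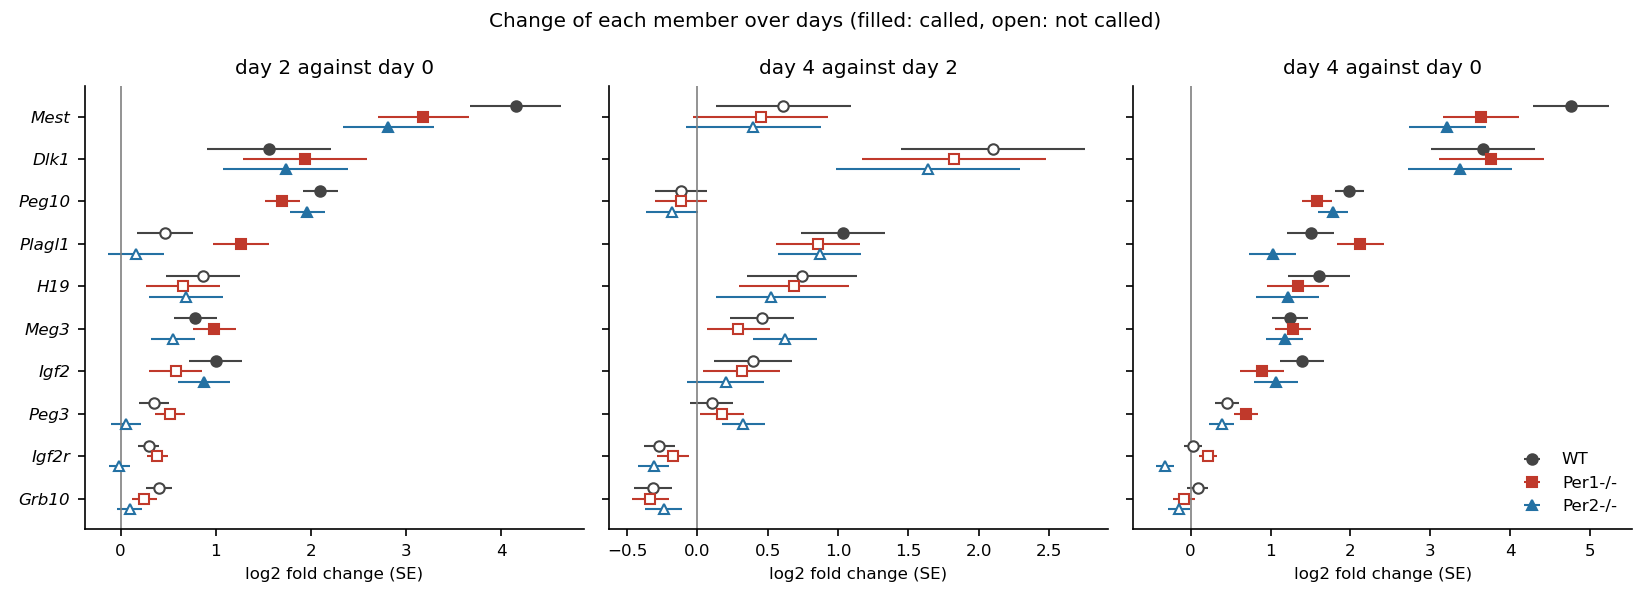
Log2 fold change of each member (horizontal axis, bars for the SE) between days, by genotype, with filled symbols for members called and open symbols for the others. Mest and Peg10 had most of their change by day 2, whereas Dlk1 had similar values in both intervals and Plagl1 was the only member called from day 2 to day 4, in WT cells.

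Marker lists moved with the days as well. On day 4 against day 0, 11, 12, and 7 of 13 macrophage markers, 9, 9, and 9 of 10 tested neuronal markers, and 7, 6, and 6 of 10 fibroblast markers were called higher in WT cells, Per1-/- cells, and the Per2-labelled libraries, 2 fibroblast markers were called lower in each, and 8 of 8 mitosis genes were called lower in each. Of 8 tested muscle markers 4, 3, and 3 were called higher and 2 lower in each, and of 3 tested endothelial markers 1 was called higher and 1 lower in each. The summed FPKM of the muscle markers nevertheless went from 200 to 391 on day 0 to 56.0 to 86.7 on day 4 in WT cells. It went from 85.1 to 414 to 65.5 to 93.8 in Per1-/- cells, with overlap, and from 193 to 326 to 43.7 to 60.9 in the Per2-labelled libraries. The summed FPKM of the macrophage markers in WT cells lay between 109 and 200.9 on day 0 and was 426 to 563 on day 4. It was 96.2 to 563 and then 771 to 1201 in Per1-/- cells, and 58.5 to 271 and then 312 to 403 in the Per2-labelled libraries. The part of these shifts in the rise of the members was not tested. In bulk RNA, fewer cells of a type and less RNA per cell cannot be told apart.

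Mest showed the largest fold change of the members from day 0 to day 4 in WT cells and Dlk1 in the other genotypes. To day 2, Mest had the largest in every genotype. The 3 WT libraries of day 0 held 5.61, 4.30, and 6.86 FPKM of Mest, those of day 2 97.3, 144, and 69.9, and those of day 4 157, 208, and 107. In Per1-/- cells the values were 13.7, 15.1, and 3.86 on day 0, then 98.5, 96.0, and 65.5 on day 2, and finally 127, 142, and 87.2 on day 4. The Per2-labelled libraries had 4.53, 15.9, and 22.8, then 83.7, 85.6, and 82.5, and then 114, 128, and 92.3. Every library of days 2 and 4 was above every library of day 0, and the spread on day 0 was wide outside WT cells, with 3.86 FPKM in 1 Per1-/- library and 22.8 FPKM in 1 Per2-labelled library. The log2 fold change to day 2 was 4.15 ± 0.48 (adjusted p = 2.68e-07) in WT cells (17.8-fold), 3.18 ± 0.48 for Per1-/- cells, and 2.82 ± 0.48 in the Per2-labelled libraries. To day 4 it was 4.76 ± 0.48, 3.63 ± 0.48, and 3.21 ± 0.48, and the change between days 2 and 4 was not called in any of them (0.40 to 0.61). The gene overlaps Copg2 on the other strand, and the library kit did not keep the strand, so reads in the overlap cannot be assigned to one of them. Copg2 itself rose by 0.79, 0.88, and 0.75, called in each genotype.

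Peg10 rose between days 0 and 2, with no called change afterwards. It was at 9.13 to 15.9 FPKM in the 9 libraries of day 0, at 32.2 to 52.3 on day 2, and at 31.5 to 51.4 on day 4. No library of day 0 reached any of the later ones, and the libraries of days 2 and 4 overlapped. The log2 fold change to day 2 was 2.10 ± 0.18 (adjusted p = 6.32e-09) in WT cells, 1.70 ± 0.18 for Per1-/- cells, and 1.96 ± 0.18 in the Per2-labelled libraries. From day 2 to day 4 it was -0.11 ± 0.18, -0.12 ± 0.18, and -0.18 ± 0.18, none of them called. Sgce, the gene next to Peg10 that is read from the opposite strand, was called higher on day 4 with 1.13, 0.85, and 1.18, and Ppp1r9a of the same cluster with 2.11, 2.17, and 2.08. Both, like Copg2 above and Rian, Mirg, and Airn below, were chosen from a list of imprinted genes after their values were seen.

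Dlk1, whose product inhibits the maturation of preadipocytes, had its highest mean on day 4 in each genotype. WT libraries held 9.96, 22.7, and 13.2 FPKM on day 0, then 23.1, 62.3, and 53.9 on day 2, and finally 131, 182, and 259 on day 4. Per1-/- libraries held 46.2, 16.1, and 9.64, then 159, 47.6, and 54.3, and then 385, 185, and 257. The Per2-labelled ones held 8.45, 23.4, and 14.6, then 17.6, 96.0, and 63.7, and then 74.8, 252, and 173. Replicates differed more than for any other member in 8 of 9 groups, with an SD of 33.8% to 81.2% of the mean (Mest, with 64.1%, was above Dlk1 in the Per2-labelled libraries of day 0), and the same replicate number was the lowest (WT and Per2-/- replicate 1) or the highest (Per1-/- replicate 1) on all 3 days. The lowest library of day 4 was still above the highest of day 0 in each genotype. The log2 fold change to day 4 was 3.66 ± 0.65 (adjusted p = 5.74e-05) in WT cells, 3.77 ± 0.65 for Per1-/- cells, and 3.37 ± 0.65 in the Per2-labelled libraries.

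The change of Dlk1 to day 2 passed the test narrowly, and days 0 and 2 overlapped in the Per2-labelled libraries. It was 1.56 ± 0.65 (adjusted p = 0.0453) in WT cells, 1.94 ± 0.65 (adjusted p = 0.0147) for Per1-/- cells, and 1.73 ± 0.65 (adjusted p = 0.0292) in the Per2-labelled libraries. The WT call was lost without day 0 replicate 1 or 3 (1.29, adjusted p = 0.146 and 1.497, adjusted p = 0.0969) and without day 2 replicate 2 or 3 (1.29, adjusted p = 0.147 and 1.39, adjusted p = 0.122). In Per1-/- cells it was lost without day 0 replicate 3 (1.44, adjusted p = 0.0877) and without day 2 replicate 1 (1.39, adjusted p = 0.1). For the Per2-labelled libraries it was lost without day 0 replicate 1 or 3 (1.36, adjusted p = 0.125 and 1.75, adjusted p = 0.0578) and without day 2 replicate 2 or 3 (1.23, adjusted p = 0.162 and 1.52, adjusted p = 0.0936). Fitting without a filter on low values also ended the WT call (1.56, adjusted p = 0.095) and the Per2-/- call (1.73, adjusted p = 0.0627). A fit of only the groups compared ended the Per1-/- call (1.94, adjusted p = 0.0552) and the Per2-/- call (1.73, adjusted p = 0.0686).

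Meg3, the maternally expressed partner of Dlk1, rose in all 3 genotypes too. It was at 21.6, 22.5, and 23.0 FPKM in WT libraries on day 0 and at 48.3, 49.1, and 63.1 on day 4. In Per1-/- cells it went from 27.2, 18.6, and 25.3 to 72.5, 38.6, and 66.0, and in the Per2-labelled libraries from 23.1, 24.8, and 20.7 to 36.2, 65.2, and 58.5. All libraries of day 4 were above all libraries of day 0. The log2 fold change was 1.24 ± 0.23 (adjusted p = 7.10e-05), 1.28 ± 0.23, and 1.18 ± 0.23. On day 2 Meg3 was called in WT (0.79 ± 0.23) and Per1-/- cells (0.99 ± 0.23) but not in the Per2-labelled libraries (0.55 ± 0.23, under the minimum size), where the call was gained without day 2 replicate 1 (0.64, adjusted p = 0.0418). The later change of Meg3, 0.63 ± 0.23 from day 2 to day 4 in the Per2-labelled libraries, was not called, but was called without day 4 replicate 1 (0.88, adjusted p = 0.0386).

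The balance between Meg3 and Dlk1 shifted over the days. The ratio of Meg3 to Dlk1 FPKM was 2.17, 0.992, and 1.74 in WT libraries on day 0 and 0.369, 0.269, and 0.244 on day 4. It went from 0.589, 1.16, and 2.63 to 0.188, 0.208, and 0.257 in Per1-/- cells and from 2.73, 1.06, and 1.42 to 0.484, 0.259, and 0.338 in the Per2-labelled libraries. All 9 ratios of day 4 were below all 9 of day 0. The mean change over the genotypes was -2.37 on the log2 scale (-2.42, -2.49, and -2.20). Its p was 0.00025, the smallest that the 8000 assignments of day labels within genotypes can give, in a two-sided exact permutation test (adjusted p = 0.0015 over 6 tests of ratios). On day 2 the mean change was -0.97 (exact permutation p = 0.0195, adjusted p = 0.0293). The adjusted p of this exact permutation test exceeded 0.05 without Per1-/- day 0 replicate 3 (-0.79, adjusted p = 0.0604) or Per2-/- day 0 replicate 1 (-0.84, adjusted p = 0.0623). So it did without Per1-/- day 2 replicate 1 (-0.84, adjusted p = 0.0653) or Per2-/- day 2 replicate 2 or 3 (-0.85, adjusted p = 0.0585 and -0.89, adjusted p = 0.0548). Further along the cluster, the noncoding RNA Mirg was called higher on day 4 with 0.74, 0.64, and 0.72, and Rian was not called, with 0.041, -0.032, and -0.16.

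**Figure D3:**
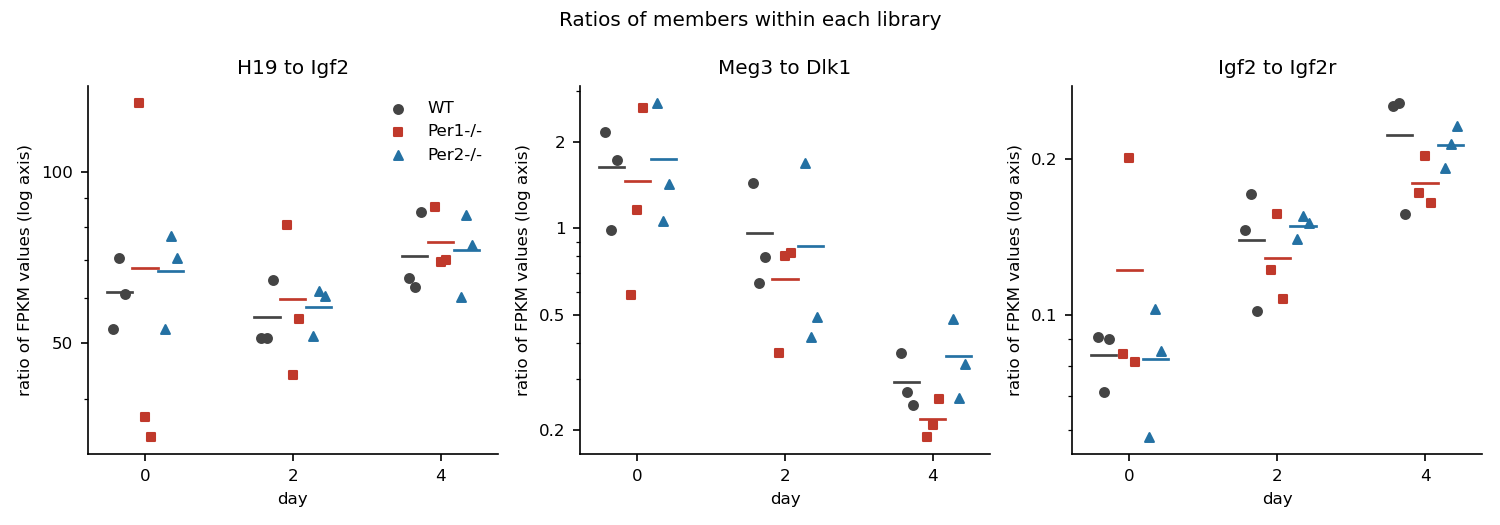
Ratio of FPKM values (log axis) of 3 pairs of members against the day, with a point for each library and a bar for the mean of each genotype. The ratio of Meg3 to Dlk1 fell between days 0 and 4, that of Igf2 to Igf2r rose, and that of H19 to Igf2 kept overlapping ranges.

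Igf2 and its neighbor H19 both rose from day 0 to day 4 in all 3 genotypes. Igf2 was at 7.85, 7.66, and 9.58 FPKM in WT libraries on day 0, then 18.3, 20.8, and 12.2 on day 2, and finally 25.6, 23.4, and 17.8 on day 4. In Per1-/- cells it went from 8.77, 19.9, and 8.23 on day 0 through 17.1, 18.6, and 15.1 to 20.8, 21.7, and 20.6, and in the Per2-labelled libraries from 5.22, 11.7, and 6.80 through 13.5, 14.0, and 13.8 to 14.2, 17.2, and 16.2. The ranges of days 0 and 4 did not overlap in any genotype, although replicate 2 of the Per1-/- cells was already at 19.9 FPKM on day 0. The log2 fold change to day 4 was 1.39 ± 0.27 (adjusted p = 1.64e-04) in WT cells, 0.89 ± 0.27 (adjusted p = 0.00761) for Per1-/- cells, and 1.07 ± 0.27 (adjusted p = 0.00204) in the Per2-labelled libraries. The Per1-/- call was lost without day 0 replicate 3 (0.67, adjusted p = 0.0563) and in a fit of only the groups compared (0.89, adjusted p = 0.0604). The change to day 2 passed in WT cells (1.00 ± 0.27) and in the Per2-labelled libraries (0.87 ± 0.27, lost without day 0 replicate 1: 0.62, adjusted p = 0.0794). In Per1-/- cells it was 0.58 ± 0.27, with an adjusted p of 0.0751 by limma, and was called without day 0 replicate 2 (0.98, adjusted p = 0.00173). Igf2os, antisense to Igf2, had a mean of 0.796 FPKM and cannot be told apart from Igf2 where they overlap.

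H19 was 416, 540.0, and 585 FPKM in WT libraries on day 0 and 1668, 1472, and 1512 on day 4. Among Per1-/- libraries it was 1157, 739, and 282 and then 1799.8, 1507, and 1445, and in the Per2-labelled libraries 276, 904, and 480.4 and then 856, 1443, and 1207. Only the Per2-labelled libraries overlapped between days 0 and 4. Fitted over all libraries, the log2 fold change was 1.61 ± 0.39 (adjusted p = 0.00123) in WT cells, 1.34 ± 0.39 (adjusted p = 0.00521) for Per1-/- cells, and 1.21 ± 0.39 (adjusted p = 0.0109) in the Per2-labelled libraries. The last 2 calls were lost without Per1-/- day 0 replicate 3 (0.77, adjusted p = 0.0595) or Per2-/- day 0 replicate 1 (0.79, adjusted p = 0.0938), and in fits of only the groups compared (1.34, adjusted p = 0.0622, and 1.21, adjusted p = 0.0517). The change to day 2, 0.86 ± 0.39, 0.66 ± 0.39, and 0.69 ± 0.39, was not called. It was called without Per1-/- day 0 replicate 1 (1.10, adjusted p = 0.0188) and without Per2-/- day 0 replicate 2 (1.13, adjusted p = 0.02), and for WT cells in a fit of only the groups compared (0.86, adjusted p = 0.00485).

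The ratio of H19 to Igf2 was 52.9, 70.5, and 61.0 in WT libraries on day 0 and 65.0, 62.9, and 85.1 on day 4. Per1-/- libraries went from 132, 37.1, and 34.2 to 86.5, 69.4, and 70.1, and the Per2-labelled ones from 52.9, 77.0, and 70.7 to 60.3, 83.8, and 74.4. The ranges of the days overlapped, and replicate 1 of the Per1-/- cells on day 0 stood above all other libraries. The mean log2 change was -0.080 on day 2 (exact permutation p = 0.73) and 0.27 on day 4 (exact permutation p = 0.25, adjusted p = 0.3). Without that library it was 0.13 (adjusted p = 0.498, exact permutation) on day 2, with the sign turned, and 0.48 (adjusted p = 0.018, exact permutation) on day 4.

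No change of Igf2r over the days was called. It was at 86.5, 107, and 106 FPKM in WT libraries on day 0, then 125, 121, and 120.2 on day 2, and finally 101, 91.0, and 113 on day 4. Among Per1-/- libraries it was at 104, 99.1, and 101, then 140.1, 118, and 141, and then 121, 107, and 125. In the Per2-labelled libraries it was at 89.7, 114, and 79.6, then 96.0, 90.1, and 91.4, and then 73.6, 80.3, and 70.0. All 3 WT libraries of day 2 were above those of the other days, the Per1-/- libraries of day 2 were above those of day 0 and overlapped those of day 4, and the highest Per2-labelled library was one of day 0. Fitted over all libraries, the log2 fold change to day 4 was 0.025 ± 0.11 in WT cells, 0.21 ± 0.11 for Per1-/- cells, and -0.32 ± 0.11 in the Per2-labelled libraries. None was called, and the fall in the Per2-labelled libraries passed the adjusted p threshold but was under the minimum size. On the TPM scale these changes were 0.42, 0.48, and -0.074, beside the shift of all genes given above. The ratio of Igf2 to Igf2r rose by 1.15 on the log2 scale by day 4 (2.22-fold, exact permutation p = 7.50e-04, adjusted p = 0.00225) and by 0.59 by day 2 (exact permutation p = 0.0113, adjusted p = 0.0225). The adjusted p of the latter exceeded 0.05 without Per1-/- day 0 replicate 3 (0.52, adjusted p = 0.0604, exact permutation). The ratio was 0.0582 to 0.201 over the 9 libraries of day 0 and 0.157 to 0.257 over those of day 4. In WT cells, Per1-/- cells, and the Per2-labelled libraries it rose by 1.37, 0.68, and 1.40 by day 4 and by 0.70, 0.19, and 0.89 by day 2. Within Per1-/- cells the ratios of days 0 and 4 overlapped (0.0814 to 0.201 and 0.164 to 0.203). Airn, the antisense RNA whose transcription silences the paternal Igf2r, overlaps it and was called higher on day 4 with 1.34, 1.22, and 0.97. Its mean was 2.15 FPKM, and the strand of the reads in the overlap is not known.

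Grb10 was not called either. It was at 83.1 to 125 FPKM on day 0, 96.8 to 158 on day 2, and 86.9 to 117 on day 4. Its log2 fold change to day 4 was 0.086 ± 0.13, -0.083 ± 0.13, and -0.15 ± 0.13, none called, with 0.49, 0.19, and 0.10 on the TPM scale, where the sign turned in Per1-/- cells and the Per2-labelled libraries. The 95% interval of the change was -0.19 to 0.36 in WT cells, -0.36 to 0.19 for Per1-/- cells, and -0.42 to 0.13 in the Per2-labelled libraries. From day 0 to day 2 the log2 fold change of Grb10 was 0.40 ± 0.13 (adjusted p = 0.0129), 0.25 ± 0.13 (adjusted p = 0.11), and 0.095 ± 0.13 (adjusted p = 0.567), and that of Igf2r was 0.30 ± 0.11 (adjusted p = 0.0278), 0.39 ± 0.11 (adjusted p = 0.00548), and -0.013 ± 0.11 (adjusted p = 0.93) by limma, all under the minimum size. On the TPM scale both were called in WT cells (Grb10 0.84, adjusted p = 1.55e-05, and Igf2r 0.73, adjusted p = 8.77e-05) and in Per1-/- cells (Grb10 0.65, adjusted p = 2.84e-04, and Igf2r 0.78, adjusted p = 4.40e-05), beside a shift of all genes of 0.42 and 0.38. Neither was called on that scale in the Per2-labelled libraries.

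Of the zinc finger genes, Plagl1, a regulator that binds near several other imprinted genes, was called higher on day 4 in each genotype. WT libraries held 16.1, 29.3, and 13.8 FPKM on day 0, then 21.4, 31.3, and 25.7 on day 2, and finally 51.0, 55.5, and 52.6 on day 4. Those of Per1-/- cells held 19.3, 15.3, and 10.04, then 52.6, 26.2, and 30.4, and then 75.3, 53.3, and 62.3. The Per2-labelled ones held 33.4, 16.9, and 20.8, then 19.95, 27.8, and 29.5, and then 51.8, 48.3, and 40.1. Every library of day 4 was above every library of day 0, and days 0 and 2 overlapped except in Per1-/- cells. Fitted over all libraries, the log2 fold change to day 4 was 1.5004 ± 0.30 (adjusted p = 1.68e-04) in WT cells, 2.12 ± 0.30 for Per1-/- cells, and 1.03 ± 0.30 in the Per2-labelled libraries. To day 2 it was 0.47 ± 0.30, 1.27 ± 0.30 (adjusted p = 9.85e-04), and 0.16 ± 0.30, called only in Per1-/- cells. Without WT day 0 replicate 2 it was called in WT cells too (0.79, adjusted p = 0.0292).

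From day 2 to day 4 the change of Plagl1 was 1.04 ± 0.30 (adjusted p = 0.0469) in WT cells. This call, the only one of a member in that interval, was lost without any single library of the 6: the adjusted p was 0.175, 0.0582, and 0.132 without day 2 replicates 1, 2, and 3, and 0.113, 0.147, and 0.0921 without those of day 4, with log2 fold changes of 0.90 to 1.17. It was also lost with a pseudocount of 0.01 (1.04, adjusted p = 0.0519), with no filter on low values (1.04, adjusted p = 0.0873), and on the TPM scale (1.00, adjusted p = 0.0956). Among Per1-/- libraries the change was 0.86 ± 0.30 (adjusted p = 0.106), called without day 2 replicate 1 (1.16, adjusted p = 0.0416), and in the Per2-labelled libraries it was 0.87 ± 0.30 (adjusted p = 0.078), called in a fit of only the groups compared (0.87, adjusted p = 0.0463). Dlk1 had the largest change of any member in this interval, 2.10 ± 0.65 (adjusted p = 0.0681), 1.83 ± 0.65 (adjusted p = 0.12), and 1.64 ± 0.65 (adjusted p = 0.133), and was not called. A fit of only the WT groups called Dlk1 (2.10, adjusted p = 0.0377) and H19 (0.74, adjusted p = 0.0377).

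Peg3, a zinc finger protein linked to maternal behavior and cell death, was called higher by day 4 in Per1-/- cells alone. Its range was 22.2 to 35.6 FPKM on day 0, 29.1 to 46.2 on day 2, and 30.1 to 50.3 on day 4, so that the days overlapped over all libraries. The Per1-/- libraries held 26.5, 31.7, and 29.6 FPKM on day 0 and 45.6, 46.0, and 50.3 on day 4, without overlap. Fitted over all libraries, the log2 fold change to day 4 was 0.69 ± 0.16 (adjusted p = 6.10e-04) in Per1-/- cells, where it was called, and 0.45 ± 0.16 (adjusted p = 0.0151) in WT cells and 0.39 ± 0.16 (adjusted p = 0.0371) in the Per2-labelled libraries, which were under the minimum size. The WT change was called without day 0 replicate 3 (0.59, adjusted p = 0.00479) or day 4 replicate 2 (0.60, adjusted p = 0.00365) and on the TPM scale (0.85, adjusted p = 1.24e-04), as was that of the Per2-labelled libraries (0.64, adjusted p = 0.0023). Among Per1-/- libraries the change to day 2, 0.52 ± 0.16, was called only without day 2 replicate 2 (0.63, adjusted p = 0.00368) and on the TPM scale (0.91, adjusted p = 6.92e-05). The difference in change between Per1-/- and WT cells was 0.24 ± 0.22 and was not called.

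The comparison of genotypes asked whether loss of Per1 or Per2 altered these genes. On day 0, 0 members were called for Per1-/- cells against WT cells, for the Per2-labelled libraries against WT cells, or for Per1-/- cells against the Per2-labelled libraries, where 0.0134%, 0.0067%, and 0.0201% of all genes were called in either direction. On day 2 the count was again 0 in each, beside 0.0067%, 0.0268%, and 0.0737% of all genes. On day 4, 0 members were called against WT cells for either genotype, beside 0.0268% and 0.0067%, and 1 member, Igf2r, was called higher in Per1-/- cells than in the Per2-labelled libraries, beside 0.556%. By limma at an unadjusted p of at most 0.05, the members numbered 0, 1, and 2 on day 0, then 0, 2, and 4 on day 2, and finally 1, 1, and 1 on day 4, in the order above. Of all 14932 tested genes, 719, 588, and 892 passed that level on day 0. The genes passing it were 410, 429, and 1228 on day 2 and 924, 511, and 1974 on day 4. Voom on the fragments gave the same counts of called members in these 9 comparisons.

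**Figure D4:**
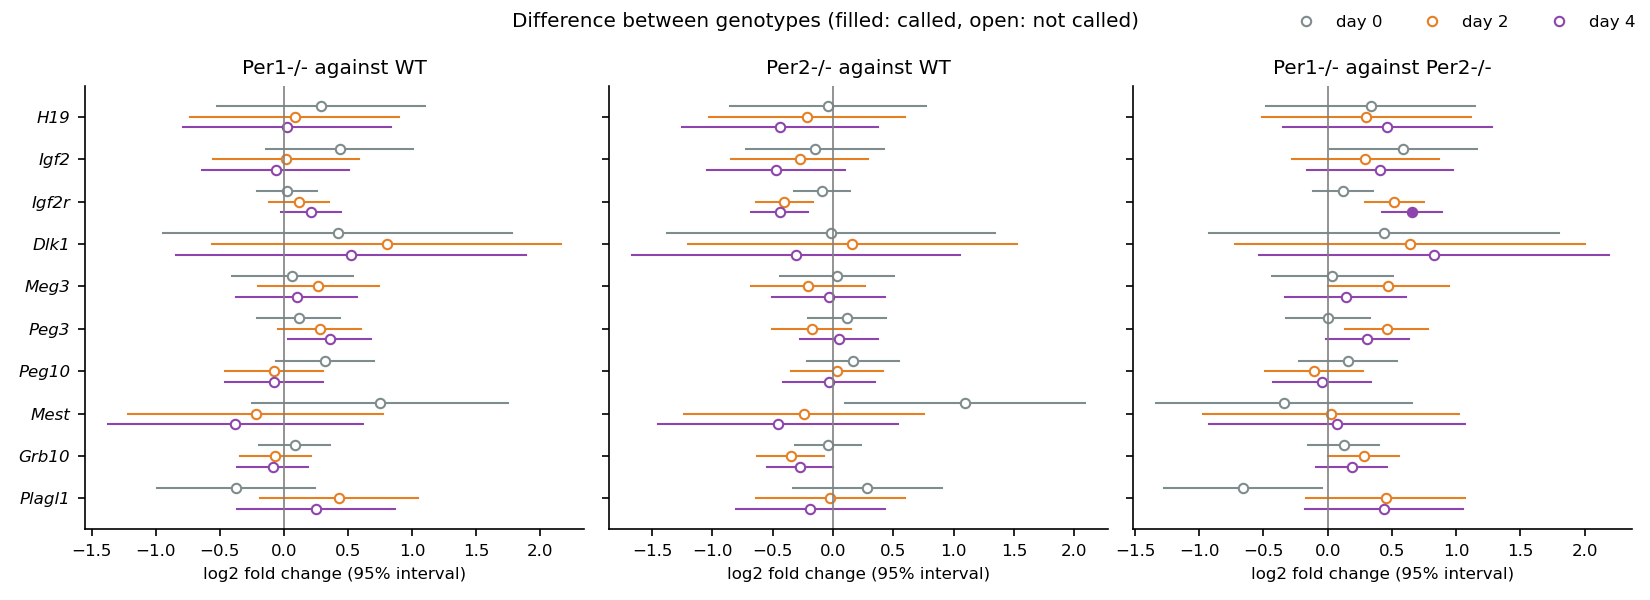
Log2 fold change of each member between genotypes (horizontal axis) with its 95% interval, by day, with a filled symbol for a member called and open symbols for the others. Of 90 differences, only that of Igf2r between Per1-/- cells and the Per2-labelled libraries on day 4, 0.66, was called.

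Igf2r differed between Per1-/- cells and the Per2-labelled libraries by 0.66 ± 0.11 (adjusted p = 0.013) on day 4, a 1.58-fold difference, and all 3 Per1-/- libraries were above all 3 of the other group. On day 2 the difference was 0.52 ± 0.11 (adjusted p = 0.0876), and on day 0 it was 0.12 ± 0.11 (adjusted p = 0.937). The day 4 call was lost on the TPM scale (0.57, adjusted p = 0.114) and without Per1-/- replicate 1 (0.64, adjusted p = 0.0761) or 3 (0.61, adjusted p = 0.0563) or Per2-/- replicate 1 (0.65, adjusted p = 0.056) or 3 (0.61, adjusted p = 0.0755). Against WT cells the Per2-labelled libraries had -0.44 ± 0.11 (adjusted p = 0.602) and Per1-/- cells 0.21 ± 0.11 (adjusted p = 0.86). The comparisons share libraries. The summed FPKM of the macrophage markers on day 4 was 771 to 1201 in Per1-/- cells, 426 to 563 in WT cells, and 312 to 403 in the Per2-labelled libraries, the same order as the means of Igf2r. These sums did not overlap between genotypes, and their part in the difference was not tested. None of the 13 macrophage markers was called between genotypes on that day, which does not show equal levels. Their median log2 fold change was 1.05 for Per1-/- cells and -0.47 for the Per2-labelled libraries against WT cells. Between Per1-/- cells and the Per2-labelled libraries it was 1.48. By DESeq2, the study reported that most genes differing between Per1-/- cells and both other genotypes were higher in Per1-/- cells, macrophage genes among them.

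Several members lay apart between genotypes, of which only Igf2r was called, in 1 comparison. On day 4 all 3 Per1-/- libraries were above all 3 Per2-labelled ones for H19, Igf2, Igf2r, Peg3, and Plagl1 (5 of 10 members, beside 19.2% of all tested genes apart in either direction). All 3 Per2-labelled libraries were below all 3 WT libraries for H19, Igf2, Igf2r, and Grb10 (4 of 10, beside 10.2%). Against WT cells, Per1-/- cells were apart on day 4 for Peg3, which was higher (1 of 10, beside 14.6%). On day 2, Peg3 was again higher in all Per1-/- libraries than in all WT libraries (1 of 10, beside 10.3%), Igf2r, Peg3, and Grb10 were lower in the Per2-labelled libraries than in WT cells (3 of 10, beside 9.98%), and Igf2, Igf2r, and Peg3 were higher in Per1-/- cells than in the Per2-labelled libraries (3 of 10, beside 16.1%). On day 0, no member was apart in any of the 3 comparisons, beside 5.11%, 7.6%, and 6.94%. For 3 libraries against 3, the smallest two-sided p that exact permutation of 1 gene allows is 0.1.

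On day 4, Igf2 in the Per2-labelled libraries was -0.47 ± 0.27 against WT cells and H19 -0.44 ± 0.39, with 95% intervals of -1.04 to 0.098 and -1.25 to 0.37. Peg3 in Per1-/- cells was 0.28 ± 0.16 on day 2 and 0.36 ± 0.16 on day 4 against WT cells. Dlk1 had the widest intervals, -0.84 to 1.89 for Per1-/- cells and -1.67 to 1.06 for the Per2-labelled libraries against WT cells on day 4, so that a 2-fold rise lies within both and a 2-fold fall within the latter. Intervals of Igf2r and Grb10 in Per1-/- cells against WT cells on day 4 were -0.021 to 0.45 and -0.36 to 0.19, which leave out a change of 2-fold.

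The change over days was not called as different between genotypes for any member or any other gene. The 6 comparisons of changes (to day 2 and to day 4, for each pair of genotypes) called 0 members and 0% of all genes by limma, and voom called 0 members as well. At an unadjusted p of at most 0.05 there were 306 to 895 genes per comparison. At that level, 0 members passed for Per1-/- against WT cells on both days, 0 and 2 for the Per2-labelled libraries against WT cells on days 2 and 4 (Igf2r and Mest on day 4), and 2 and 2 for Per1-/- cells against the Per2-labelled libraries (Igf2r and Plagl1 on both days). The largest value was that of Mest, whose rise to day 4 was -1.55 ± 0.68 on the log2 scale in the Per2-labelled libraries relative to WT cells (-2.96 to -0.14) and -1.13 ± 0.68 in Per1-/- cells relative to WT cells. That of Plagl1 was 1.10 ± 0.42 larger in Per1-/- cells than in the Per2-labelled libraries.

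Other imprinted genes were compared as a list of 40, of which 31 passed the filter on low values. On day 4 against day 0, 13 of these were called higher in each of the 3 genotypes, and 4 in WT cells, 5 for Per1-/- cells, and 5 in the Per2-labelled libraries were called lower. Their median log2 fold change was 0.57, 0.48, and 0.51. The strongest rises were those of Rtl1 and Begain, both of the Dlk1 cluster, and of Cdkn1c, an inhibitor of cyclin-dependent kinases in the imprinted domain next to Igf2. Rtl1 went from 0.222 to 2.39 FPKM in WT cells (2.94 ± 0.33, 3.03 ± 0.33, and 2.29 ± 0.33 in the 3 genotypes), and Begain from 0.938 to 5.69 (2.51 ± 0.30, 2.27 ± 0.30, and 2.11 ± 0.30). Cdkn1c went from 40.9 to 225 FPKM (2.51 ± 0.28, 2.47 ± 0.28, and 1.61 ± 0.28). The strongest falls were those of Ddc, next to Grb10 and the enzyme that makes dopamine (-1.31 ± 0.38, -1.51 ± 0.38, and -1.08 ± 0.38), of the amino acid transporter Slc38a4 (-1.03 ± 0.24, -1.22 ± 0.24, and -1.17 ± 0.24), and of the paraoxonase Pon2 (-0.84 ± 0.20, -0.59 ± 0.20, and -1.08 ± 0.20). No gene of the list was called between genotypes on any day.

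The genes that receive and modulate IGF signals moved in both directions. Of 20 listed, 18 were tested, and on day 4 against day 0, 5, 6, and 5 were called higher and 8, 7, and 7 lower in WT cells, Per1-/- cells, and the Per2-labelled libraries. Binding proteins that hold IGFs outside cells were among the strongest risers: Igfbp5 (2.70 ± 0.29, 2.88 ± 0.29, and 1.84 ± 0.29), Igfbp4 (2.43 ± 0.38, 1.89 ± 0.38, and 1.74 ± 0.38), and Igfbp3 (1.62 ± 0.29, 2.04 ± 0.29, and 1.70 ± 0.29). Not all binding proteins rose. Igfbp7 went from 417 to 98.05 FPKM in WT cells (-2.09 ± 0.21, -2.17 ± 0.21, and -1.87 ± 0.21). Igfbp6 was called lower in WT and Per1-/- cells but not in the Per2-labelled libraries (-0.79 ± 0.34, -1.25 ± 0.34, and -0.51 ± 0.34). It was named after its values were seen. The lowest values were those of Hmga2, a chromatin protein of fetal cells, which went from 187 to 13.6 FPKM in WT cells (-3.81 ± 0.41, -3.91 ± 0.41, and -3.88 ± 0.41). Grb14, an adaptor related to Grb10, fell by 2.47, 2.78, and 1.87 on the log2 scale. Between genotypes 1 gene of the list was called, Igf1 on day 4 between Per1-/- cells and the Per2-labelled libraries (1.25 ± 0.27, adjusted p = 0.0308 by limma), and it was named after its value was seen.

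The pattern of each member over the 27 libraries was compared with that of every other tested gene by Pearson's r of log2 values. These r are descriptions over libraries that share days and cultures. Peg3 was most like Zim1, its imprinted neighbor, and Rtl1 of the same cluster was among the genes most like Dlk1. The 3 closest genes of Peg3 were Zim1 (0.86), Gpr146 (0.85), and Nxpe5 (0.85), and those of Dlk1 were Clec3b (0.97), Rtl1 (0.94), and Ntrk2 (0.94). Mest was closest to Smarca1 (0.98), Tenm3 (0.98), and Pygo1 (0.98), and Peg10 to Sox11 (0.97), Pvalb (0.97), and Kcne1l (0.97), the first a transcription factor of young neurons. H19 was closest to Col6a3 (0.94), Slc27a6 (0.94), and Ror1 (0.93), Igf2 to Gpc3 (0.90), Ddah2 (0.89), and Rnf144a (0.88), and Meg3 to Pamr1 (0.95), Serping1 (0.94), and Ppp4r1l-ps (0.94). Plagl1 was closest to Myoc (0.92), Nov (0.92), and Sh3rf3 (0.91). Igf2r and Grb10 had lower values, Trak1 (0.80), Glce (0.75), and Ugt1a7c (0.74) for Igf2r and Klhl5 (0.81), Mrc2 (0.78), and Zfp57 (0.77) for Grb10, the last of these being a protein that protects imprints.

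Among the members, r over the 27 libraries ranged from -0.26 (Grb10 and Plagl1) to 0.92 for Peg10 and Mest and 0.92 for Dlk1 and Meg3. After the mean of each genotype and day was taken out, Peg10 and Mest had an r of 0.12, whereas Dlk1 and Meg3 had 0.69. The highest remaining r were those of H19 with Dlk1 (0.72) and H19 with Mest (0.70), and H19 and Igf2 had 0.54. Replicate 1 of the Per1-/- cells, for example, was the highest of the 3 for both H19 and Dlk1 on each day. The lowest was that of Grb10 and Plagl1 (-0.57).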

How the data were processed

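The 27 RNA-seq libraries were made with poly-A selection and a library kit that did not keep the strand. Per the submitters' processing notes and the methods of the study, the authors aligned the reads with HISAT2 2.0.5, counted fragments per gene with featureCounts 1.5.0-p3, and deposited 1 FPKM value per gene and library. In the deposited values each library had also been scaled by a median-of-ratios size factor, and 100% of values came out as whole fragments (within 0.1), which gave 15815013 to 24264097 fragments per library. That depth sets the counting error. The labels call the replicates biological and number them. The sources used here do not say whether they differed in animals, cultures, or both, and p-values measure the spread between them.

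Groups were taken from the labels. Log2(FPKM + 0.1) of the 14932 genes whose mean reached 0.5 FPKM was fitted in limma 3.58.1 (R 4.3.3) with a term for each genotype and day, a trended prior, and Benjamini-Hochberg adjustment over all tested genes. A gene was called where its adjusted p was up to 0.05 and its log2 fold change 0.58 or more either way. Fold changes are on the log2(FPKM + 0.1) scale, which understates those of low genes, and ± gives the SE. Ratios of members were compared by an exact permutation test of day labels within genotypes. The fit was tested on simulated data for the comparison of days 0 and 4 in WT cells. Of 200 genes changed by 1 on the log2 scale, 127 (63.5%) were recovered with 7 false calls among 14932 genes. Of 200 changed by 2, 178 (89%) were recovered with 5. No other gene was changed in the simulation, whereas 22.9% and 20.9% of all tested genes were called higher and lower in the data. These rates may therefore not carry over, and comparisons of genotypes were not simulated.

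All 10 members were named, together with, for each list, the 3 tested genes with the highest and the 3 with the lowest mean change from day 0 to day 4 over the genotypes, and the 3 genes most like each member by Pearson's r. The members, the lists, and these rules were chosen with earlier results of these data known. Alternatives were pseudocounts of 1 and 0.01, other filters, only the groups compared, TPM, recomputed size factors, voom on the fragments, a replicate block, no minimum fold change, and each library left out. Other values were computed in Python 3.11.15 with numpy 2.4.6 and pandas 2.3.3, and plots were drawn in matplotlib 3.10.9. Promoter sequences came from RefSeq (GRCm38.p6). The levels of the delivered reprogramming factors are not reported here.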

Additional observations from a re-analysis of the deposited data

How the results depend on the processing

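The counts of members called between genotypes and in the comparisons of changes stayed within 1.5 times under every alternative that kept all libraries, except that Igf2r between Per1-/- cells and the Per2-labelled libraries on day 4 was lost on the TPM scale (0 members called). TPM raised the members called higher on day 2 than on day 0 to 10 in WT cells and 10 in Per1-/- cells. Of all 14932 tested genes, it raised those called higher from 3101 to 5621 and from 3101 to 5365. On the TPM scale the median change of all genes to day 2 was 0.42, 0.38, and 0.32 in WT cells, Per1-/- cells, and the Per2-labelled libraries. From day 2 to day 4 the WT count was 0 with a pseudocount of 0.01, 0 with no filter on low values, 0 on the TPM scale, and 3 in a fit of only the groups compared, which gave 1 for the Per2-labelled libraries. With no minimum fold change, 7, 7, and 5 members were called in either direction from day 0 to day 2 and 8, 8, and 9 from day 0 to day 4. The last count includes Igf2r, which was lower on day 4 in the Per2-labelled libraries. Many other genes had small p too. At an unadjusted p of at most 0.05 by limma there were 9541, 9546, and 8953 of 14932 genes to day 2. To day 4 there were 9997, 9870, and 9626.

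With one library left out, the members called numbered 0 to 1 for Per1-/- cells against the Per2-labelled libraries on day 4. For WT cells, Per1-/- cells, and the Per2-labelled libraries they numbered 4 to 6, 4 to 6, and 2 to 5 from day 0 to day 2, 0 to 0, 0 to 1, and 0 to 1 from day 2 to day 4, and 7 to 8, 6 to 8, and 6 to 7 from day 0 to day 4. The log2 change of the ratio of H19 to Igf2 was -0.20 to 0.13 on day 2, the highest being reversed in sign and obtained without Per1-/- day 0 replicate 1, and 0.15 to 0.48 on day 4. That of Meg3 to Dlk1 was -1.18 to -0.79 and -2.54 to -2.18, and that of Igf2 to Igf2r 0.52 to 0.73 and 1.07 to 1.29. Why these values moved was not tested.

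A replicate block raised the members called from day 2 to day 4 to 2 in WT cells (Dlk1 added), 2 in Per1-/- cells (Dlk1 and Plagl1), and 3 in the Per2-labelled libraries (Dlk1, Meg3, and Plagl1), and it added H19 on day 2 in WT cells and in the Per2-labelled libraries. The adjusted p by limma with the block was 3.58e-04, 0.00126, and 0.00198 for Dlk1 in the 3 genotypes, 0.043 and 0.0313 for Plagl1, 0.0077 for Meg3, and 0.0156 and 0.0491 for H19. It called 829, 730, and 1051 genes in that interval in place of 479, 364, and 606. Deviations from the group means correlated over 0.1 in 14 of 27 pairs of libraries with the same number, genotype, and another day (median 0.127, lowest -0.017, highest 0.294), and in 0 of 54 such pairs with different numbers (median -0.062, highest 0.088). This is a hint of pairing within a genotype from the data, not from the design. Since not every pair was over 0.1, and the labels do not say what a number marks, the fit without the block was kept. Across genotypes on the same day, 3 of 27 pairs with the same number and 10 of 54 with different numbers were over 0.1.

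Counts over all genes between Per1-/- cells and the Per2-labelled libraries on day 4 were 83 as reported, 18 on the TPM scale, 191 with a pseudocount of 1, 144 with the block, and 266 by voom. On day 2 they were 11, with 5 on the TPM scale, 40 with the block, 7 by voom, and 0 in a fit of only the groups compared. The other genotype comparisons held at most 4 genes, and up to 23 with no filter. In the comparisons of changes 0 genes were called by limma, up to 13 with no filter, up to 3 with a pseudocount of 0.01, and up to 7 with the block. The lowest value of any member rested on 225 fragments.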
